A study of Mus musculus with 18 samples.

Results

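Mitochondrial ribosomal proteins were taken here as every gene whose symbol begins with Mrpl or Mrps followed by a digit, which gave 77 of the 14804 genes measured in any of 3 mouse stem cell types. All 77 were present in each cell type, among 13578 genes in embryonic stem cells (ESCs), 13518 in trophoblast stem cells (TSCs) and 11538 in extra-embryonic endoderm stem (XEN) cells, and all 77 passed the filter on low values in each. By their uniform ribosomal names, 50 belong to the large subunit and 26 to the small subunit. The symbol is misleading for the last, Mrps36, which encodes a subunit of the 2-oxoglutarate dehydrogenase complex. Of the 76 subunits proper, 46 carry the name of a bacterial counterpart and 30 carry a name kept for proteins of mitochondrial ribosomes. The genes lie on 17 chromosomes, and 25 of them overlap another protein-coding gene in the annotation, 3 of these on the same strand.

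The study asked how the 3 cell types respond to low oxygen, and the genes described here encode the translation machinery of the organelle that uses most of a cell's oxygen. Cells were kept in normoxia (20% O2) or in hypoxia (2% O2) for 2 days (acute) or 7 days (prolonged), with 2 biological replicates of each, so that RNA-seq covered 18 libraries, 6 for each cell type. The ESCs were of the wild-type E14 line and were grown on gelatin without feeder cells, the TSCs were grown on feeder cells with FGF4 and heparin, and the XEN cells were grown on gelatin in medium conditioned in part by fibroblasts. The labels name no line for TSCs and XEN cells, and no transgene or deletion is named for any group.

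Mammalian mitochondria keep a ribosome of their own, which translates the few mRNAs of the mitochondrial genome into membrane subunits of the oxidative phosphorylation (OXPHOS) complexes. All of its proteins are encoded in the nucleus, made on cytosolic ribosomes and imported. The small subunit binds and decodes the mRNA and the large subunit joins the amino acids. Compared with its bacterial ancestor, this ribosome has less rRNA and more protein, and many of the added proteins have no bacterial counterpart.

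RefSeq promoter windows (build GRCm38.p6, 250 bases before to 50 bases after the start of transcription) were found for 68 of the 77 genes, in 74 windows. The 4 shown here belong to the 4 members that passed the test for differential expression (DE) in any comparison, so that their promoters can be set beside one another. Mrpl17 is read from chr7:105811038-105811337, Mrps18b from chr17:35916391-35916690, Mrps24 from chr11:5707652-5707951, all on the minus strand, and Mrps7 from chr11:115603890-115604189 on the plus strand. Each is written 5′ to 3′ in the direction of its gene, and capitals mark matches, on either strand, to any of 6 short motifs. The motifs were GCGCANGCG (core of NRF1, a regulator of nuclear genes for mitochondria), CCGGAAGT (ETS factors, among them GABPA), AANATGGC (YY1), CACGTG (E-box, which contains the next), and ACGTG and GCGTG (cores of the sites bound by hypoxia-inducible factors). GCGTG can also lie within a match to the NRF1 core.
Mrpl17: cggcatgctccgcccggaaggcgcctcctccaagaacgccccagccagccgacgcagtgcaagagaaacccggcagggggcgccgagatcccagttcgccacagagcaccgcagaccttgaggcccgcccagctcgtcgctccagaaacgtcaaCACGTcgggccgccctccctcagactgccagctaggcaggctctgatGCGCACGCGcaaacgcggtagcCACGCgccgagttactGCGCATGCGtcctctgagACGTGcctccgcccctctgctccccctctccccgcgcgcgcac
Mrps18b: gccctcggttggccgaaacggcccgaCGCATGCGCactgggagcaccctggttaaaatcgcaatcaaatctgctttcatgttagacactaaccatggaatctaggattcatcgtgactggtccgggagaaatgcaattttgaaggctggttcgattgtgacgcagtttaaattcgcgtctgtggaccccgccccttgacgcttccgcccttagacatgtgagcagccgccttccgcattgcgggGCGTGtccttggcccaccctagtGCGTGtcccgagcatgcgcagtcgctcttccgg
Mrps24: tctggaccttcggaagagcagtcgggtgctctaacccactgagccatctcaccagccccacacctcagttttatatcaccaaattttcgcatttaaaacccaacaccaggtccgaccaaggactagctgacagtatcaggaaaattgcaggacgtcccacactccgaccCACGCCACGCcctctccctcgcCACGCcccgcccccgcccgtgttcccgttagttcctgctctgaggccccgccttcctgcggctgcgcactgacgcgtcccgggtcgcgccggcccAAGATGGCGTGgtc
Mrps7: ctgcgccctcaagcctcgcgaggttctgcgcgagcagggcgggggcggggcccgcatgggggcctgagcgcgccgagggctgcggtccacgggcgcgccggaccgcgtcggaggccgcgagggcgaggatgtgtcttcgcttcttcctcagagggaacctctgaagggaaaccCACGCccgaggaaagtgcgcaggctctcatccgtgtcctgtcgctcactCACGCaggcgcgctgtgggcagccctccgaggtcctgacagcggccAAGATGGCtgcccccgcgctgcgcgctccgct
Mrpl17 held the NRF1 core and both hypoxia cores. Mrps18b held the NRF1 core and GCGTG, and Mrps24 and Mrps7 each held the YY1 letters and GCGTG. The ETS letters were not in these 4 windows.

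Some genes have more than 1 window, and some of these overlap (among the members, Mrpl48, Mrpl2 and Mrps16 have several), so shares were counted over genes with a match in any window. Of the 6 motifs, the YY1 letters stood furthest from the genes of the tables, as a ratio of shares. They were found for 30.9% of the 68 members, against 8.99% of the 11664 genes of the tables and 6.96% of all 27025 genes with a window. Of their 24 matches in members, 16 lay after the start of transcription, a share of 66.7%, against 43.4% in the genes of the tables. The NRF1 core was found for 23.5% of members (13.7% of the genes in the tables, 7.03% of all) and the ETS letters for 17.6% (8.09% and 4.31%). The E-box was found for 7.35% of members, 11.3% of the genes in the tables and 8.09% of all. For ACGTG the shares were 23.5%, 28.1% and 21.8%, and for GCGTG they were 55.9%, 53.8% and 35.2%. Counted over windows in place of genes, the members' share for ACGTG was above that of the tables (25.7% against 24.2%), so its order depends on this choice. Median GC content was 58.5% in members and 60.3% in the genes of the tables. These are counts of letters and not of bound sites.

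The libraries held 35592641 to 75204029 reads on genes, of which the members took 0.245% to 0.465%. Each member had at least 230 reads in every library. The values given below are TPM as the authors deposited them, scaled by the length of a gene from its start to its end, unless they are called exon-length TPM, which were recomputed with the summed length of exons. Summed TPM of the 6 ESC markers listed was 6442 to 7300 in ESCs, that of the 6 TSC markers was 662 to 1210 in TSCs and that of the 6 XEN markers was 1979 to 2486 in XEN cells. Outside their own cell type, TSC and XEN markers summed to at most 146 and 16.6. ESC markers were higher, with 248 to 1289 in TSCs, where Sox2 was the highest of them, and 624 to 1194 in XEN cells, where the 2 of 6 in the table were almost all Klf4. Fibroblast markers were uneven among TSC libraries. All 10 on the list were measured there, and their summed TPM was 1994 and 295 in normoxia, 223 and 1041 on day 2, then 488 and 290 on day 7, by replicate. In ESCs 6 of the 10 were in the table, with sums of 38.1 to 50.9, and in XEN cells 1 was, with 0.0671 to 0.272. In bulk RNA, fewer cells of a type and less RNA per cell cannot be told apart.

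Members were expressed at levels that spanned more than an order of magnitude in each cell type. In exon-length TPM, normoxic means ran from 8.64 to 346 in ESCs (median 75.3). They ran from 7.58 to 270 in TSCs (median 60.4) and from 6.43 to 545 in XEN cells (median 62.1). The length used counts all annotated exons of a gene, so comparisons between genes also depend on the annotation. Large-subunit genes had the higher median in each cell type, with 91.6 against 55.1 for small-subunit genes in ESCs, 66.2 against 36.6 in TSCs and 68.9 against 41.7 in XEN cells. Together the members made up 0.743% of exon-length TPM in normoxic ESCs, 0.568% in TSCs and 0.576% in XEN cells. Cytosolic ribosomal proteins (77 genes) made up 11.2%, 7.51% and 8.9% in the same order, and OXPHOS subunits 2.04%, 1.56% and 2.28%. No test was made between cell types, because the authors normalized each table on its own.

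**Figure D1:**
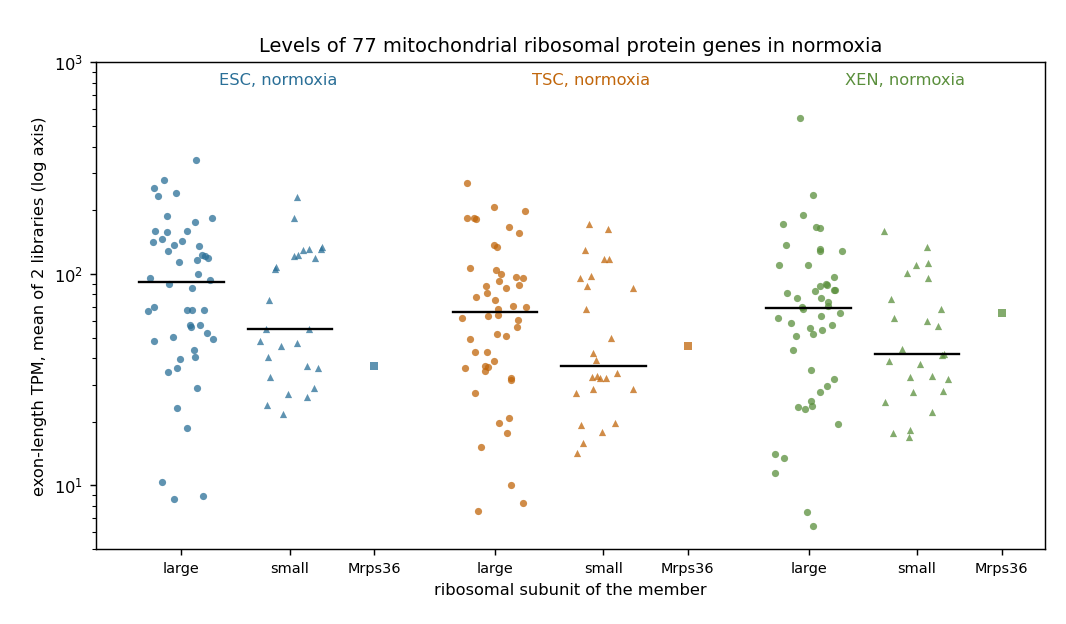
Normoxic level of each of the 77 members, as the mean exon-length TPM of 2 libraries on a log axis, by cell type and ribosomal subunit, with Mrps36 apart. Black bars are medians, and the medians of large-subunit genes (91.6, 66.2 and 68.9 in ESCs, TSCs and XEN cells) lie above those of small-subunit genes (55.1, 36.6 and 41.7).

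The order of the members was much alike in the 3 cell types. The 77 genes come from the same libraries within a cell type, and each gene keeps the same length in all 3. Across them, Spearman's rho of normoxic exon-length TPM was 0.88 for ESCs with TSCs and 0.85 for ESCs with XEN cells. It was 0.91 for TSCs with XEN cells. Mrpl2, which lies at the peptidyl transferase centre, was among the 3 highest members by the mean of all 6 libraries in each cell type. It reached 278 ± 11.9 exon-length TPM (SD, n = 2) in normoxic ESCs, 183 ± 7.53 in TSCs and 190 ± 6.28 in XEN cells. Mrpl34, a small protein of the large subunit, was highest in ESCs with 346 ± 3.21 and stood at 206 ± 0.53 in TSCs and 236 ± 13.5 in XEN cells. Mrpl18, whose bacterial counterpart binds 5S rRNA, followed Mrpl2 in ESCs with 256 ± 15.2.

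Mrpl10, which anchors the stalk that recruits translation factors, was highest in TSCs with 270 ± 14.1 and stood at 142 ± 10.3 in ESCs and 172 ± 7.69 in XEN cells. Mrpl12, which forms that stalk and has also been found to bind the mitochondrial RNA polymerase, followed Mrpl2 in TSCs by that mean, with 199 ± 31.9, a spread that overlapped with Mrpl2 and Mrpl34. The same 3 genes closed the order in ESCs and TSCs, namely Mrpl33 (8.64 ± 2.49 and 7.58 ± 0.32), Mrpl23 (8.96 ± 0.23 and 10 ± 1.63) and Mrpl48 (10.3 ± 0.24 and 8.28 ± 0.56), and they were also lowest in XEN cells, with 7.52 ± 0.4, 6.43 ± 0.98 and 11.4 ± 1.3. In ESCs, Mrpl33 and Mrpl23 did not differ beyond their spread. Mrpl48 and Mrpl23 each have an annotated pseudogene. Summed exons of Mrpl33, Mrpl23 and Mrpl48 were 7326, 4883 and 8152 bases, beside 607 for Mrpl34 and a member median of 2533. Mrpl15, with 8487 bases, stood at 99.9 ± 1.1 in normoxic ESCs. The part of annotated exon length in this order was not tested.

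Mrpl43, a large-subunit protein of mitochondria only, was an exception to the shared order. Its deposited TPM was 1655 and 1675 in normoxic XEN cells, 391 and 416 in TSCs and 345 and 325 in ESCs. In exon-length TPM this was 545 ± 4.62 in XEN cells, the highest of all members there, against 136 ± 8.41 in TSCs and 120 ± 2.46 in ESCs. Twnk, the gene of the mitochondrial DNA helicase, overlaps it on the opposite strand, and its TPM of 327 and 334 in normoxic XEN cells likewise stood above the 86.4 and 93.9 in TSCs and the 131 and 115 in ESCs. The strand setting of the authors' count is not given in the sources used here, so reads of these overlapping genes cannot be told apart.

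In ESCs, members stayed near their normoxic levels on both days. Their median log2 fold change was -0.04 on day 2 and -0.01 on day 7 against normoxia, and 0.02 on day 7 against day 2, beside medians of 0.01, 0.02 and 0.01 over all genes. Summed TPM of the 77 genes was 8471 and 8334 in normoxia, 8628 and 7786 on day 2, then 8225 and 8380 on day 7, so the groups overlapped. The median on day 2 rested on replicate 2 of that day and was 0.04 without it, and the median between the hypoxic days was 0.08 without replicate 1 of day 2. Limma called 0 of the 77 members DE in each of the 3 comparisons (adjusted p at or under 0.1 and fold change over 1.5). Among all genes 0% were DE on day 2, 0.758% on day 7 and 0.179% between the days. The authors' edgeR test on counts, with the same thresholds, called more genes against normoxia in each cell type on both days. A share of 0% here therefore does not mean that no gene changed. At an unadjusted p under 0.05 there were 0 members on day 2 (3.01% of all genes were higher and 2.05% lower), 1 on day 7, which was lower (5.85% and 2.18%), and 0 between the days (3.3% and 0.962%). Voom on the recovered reads also called 0 in each.

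The spread bounded most of these changes. The 95% confidence interval of the log2 fold change lay within a fold change of 1.5 in either direction for 71 of 77 members on day 2, 70 on day 7 and 73 between the days, or 92.2%, 90.9% and 94.8%. Among all genes the share was 55.5%, 54.5% and 60.5%.

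The replicates of single members overlapped between conditions in most cases. On day 2, 10 members were higher in both hypoxic libraries than in both normoxic ones (16.4% of all genes were) and 9 were lower in both (14.4% of all genes). On day 7 there were 12 and 14 (23% and 17.5% of all genes), and between the days 12 and 6 (15.2% and 8.8%). Mrpl32, a large-subunit protein whose processing by a mitochondrial protease is needed for ribosome assembly, had 69 and 69.1 TPM in normoxia, 79.1 and 87.5 on day 2, then 81.1 and 86.7 on day 7. All 4 hypoxic libraries were above both normoxic ones, with log2 fold changes of 0.27 ± 0.12 (SE) and 0.28 ± 0.12, and limma gave adjusted p-values of 0.97 (day 2) and 0.626 (day 7). Mrps34, a small-subunit protein, had 89.1 and 77.8 TPM in normoxia, 80.9 and 63.1 on day 2, then 60.1 and 67.8 on day 7. Its day 7 libraries were below both normoxic ones, with a log2 fold change of -0.38 ± 0.16 and a limma adjusted p of 0.591, the only member with an unadjusted p under 0.05. It overlaps Nme3 on the same strand, so part of its reads may be shared.

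Other members named by the rule had smaller differences that did not pass the test. On day 2, Mrpl13 differed by 0.16 on the log2 scale, and Mrpl52 and Mrpl50, both of mitochondria only, had -0.19 and -0.17. On day 7, Mrpl23 had 0.30 (16.7 and 15.6 TPM in normoxia, 19.6 and 20.4 on day 7), and Mrps12, at the decoding centre, had -0.24. Between the days, Mrpl52 had 0.30 and Mrpl54 0.25, while Mrpl24 had -0.22 and Mrpl10 -0.13.

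In XEN cells, most members had lower values in hypoxia than in normoxia, but no single gene passed the test. The median log2 fold change was -0.17 on day 2 and -0.16 on day 7, beside -0.01 and -0.03 over all genes, and 61 and 64 of the 77 members had a negative value. Both comparisons share the same normoxic libraries. Summed TPM of the members was 7812 and 7951 in normoxia, 6762 and 7295 on day 2, then 7083 and 7664 on day 7. All 4 hypoxic libraries were below both normoxic ones. The size on day 2 rested in part on replicate 1, without which the median was -0.09. Between the hypoxic days the median was 0.02, and summed TPM overlapped.

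Limma called 0 members DE in XEN cells in each comparison, beside 0% of all genes on day 2, 0.11% on day 7 and 0.0367% between the days. At an unadjusted p under 0.05, 5 members were lower and 0 higher on day 2 (3.97% and 3.8% of all genes), 5 lower and 0 higher on day 7 (4.02% and 4.99%), and 1 in each direction between the days (6.65% higher and 5.24% lower), and voom called 0 in each. On day 2, 36 members were below in both hypoxic libraries (21.4% of all genes) and 1, Mrpl38, above in both (19.6% of all genes). On day 7, 39 were below (23.9%) and 7 above (17.5%), and between the days 16 were above (21.7%) and 17 below (25.9%). The interval of the change lay within a fold change of 1.5 for 37 members on day 2, 32 on day 7 and 42 between the days, or 48.1%, 41.6% and 54.5%, beside 29.7%, 29.8% and 26% of all genes. The 1 fibroblast marker measured in XEN cells was near 0 in all 6 libraries, as given above.

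The lower values were spread over both subunits. On day 2 the median was -0.17 for the 50 large-subunit genes and -0.17 for the 26 small-subunit genes, and on day 7 it was -0.15 and -0.16. Genes with a bacterial counterpart had a median of -0.20 on day 2, of which 40 of 46 were negative, and genes of mitochondria only had -0.10, of which 20 of 30 were negative. On day 7 the medians of these classes were -0.16 and -0.14.

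Mrpl2 had the lowest fold change on day 2, with 180 and 189 TPM in normoxia, 112 and 138 on day 2, then 149 and 162 on day 7. Its groups did not overlap, with a log2 fold change of -0.56 ± 0.16 and a limma adjusted p of 0.477 on day 2. Mrpl23, at the exit of the peptide tunnel, had 11.3 and 14 TPM in normoxia and 7.41 and 10.2 on day 2 (-0.51 ± 0.22, limma adjusted p = 0.663). The log2 fold change of Mrpl38, the exception named above, was 0.05 ± 0.15.

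On day 7, Mrpl45, which binds the ribosome to the inner membrane, had 54.4 and 45.4 TPM in normoxia and 30.7 and 41.1 in hypoxia. The log2 fold change was -0.48 ± 0.19 with a limma adjusted p of 0.535. Mrpl47 had 28 and 27.7 TPM in normoxia, 19.5 and 22 on day 2, then 18.5 and 22.3 on day 7, and all 4 hypoxic values were lower (-0.45 ± 0.17 on day 7, limma adjusted p = 0.519). Mrpl14 and Mrpl33 were on the other side, with 0.39 ± 0.22 and 0.33 ± 0.22 on day 7. Between the days, Mrpl57 had 74.9 and 93.7 TPM on day 2 and 142 and 119 on day 7, but stood at 109 and 112 in normoxia (0.63 ± 0.17, limma adjusted p = 0.373). Mrps16 had 0.54, and Mrpl42 and Mrps25 had -0.54 and -0.42.

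**Figure D2:**
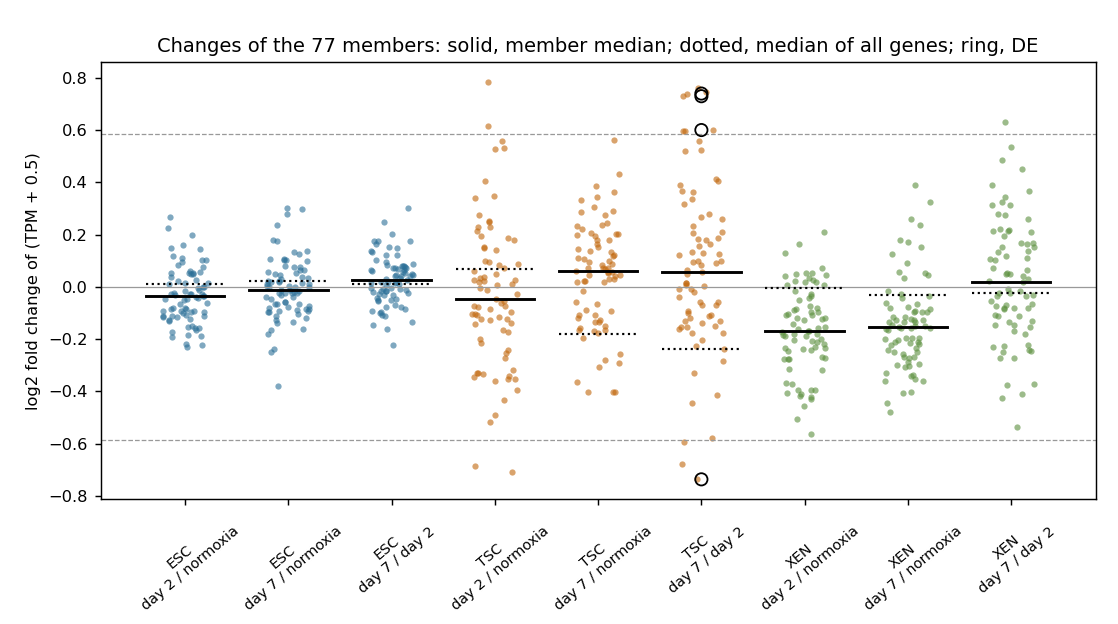
Log2 fold change of (TPM + 0.5) of each of the 77 members (points) in the 9 comparisons. Solid bars are member medians, dotted bars are medians of all genes, dashed lines mark a fold change of 1.5 and rings mark the 4 DE members, all in TSCs on day 7 against day 2. In XEN cells the member medians on day 2 and day 7 (-0.17 and -0.16) lie below those of all genes (-0.01 and -0.03).

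In TSCs, members differed in both directions and their median stayed near 0. Their log2 fold changes ran from -0.71 to 0.78 on day 2 and from -0.40 to 0.56 on day 7 against normoxia, and from -0.74 to 0.76 on day 7 against day 2. The median log2 fold change was -0.05 on day 2 and 0.06 on day 7 against normoxia, and 0.06 on day 7 against day 2. The median of all genes was 0.07, -0.18 and -0.24 in these comparisons, so that relative to it the members stood at -0.11, 0.24 and 0.30. With median-ratio scaling, which sets the median gene near 0, the member medians were -0.13, 0.25 and 0.33. Summed TPM of the members was 6505 and 6660 in normoxia, 6184 and 6366 on day 2, then 6466 and 7230 on day 7. Day 7 replicate 2 stood highest, and without it the median of day 7 against normoxia was -0.02, while without replicate 1 it was 0.14.

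Limma called 0 members DE on day 2 against normoxia (0.2% of all genes were DE) and 0 on day 7 against normoxia (0.385%). At an unadjusted p under 0.05 there were 4 higher and 4 lower on day 2 (9.61% and 3.53% of all genes), and 1 higher and 0 lower on day 7 (2.14% and 8.26%), and voom called 0 in each. Between day 2 and day 7, 4 members were DE, where 16.2% of all genes were, and at an unadjusted p under 0.05 there were 9 higher and 3 lower (4.88% and 23% of all genes). By non-overlap, 16 members were higher and 21 lower on day 2 (30.6% and 16.9% of all genes), 17 higher and 14 lower on day 7 (8.98% and 32.3%), and 21 higher and 19 lower on day 7 against day 2 (14.3% and 44.9%). The interval of the change lay within a fold change of 1.5 for 26, 28 and 27 members, or 33.8%, 36.4% and 35.1%, beside 8.28%, 9.94% and 6.75% of all genes, so a change of that size lay inside the interval of most members.

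The 4 DE members differed between day 7 and day 2 and stood on day 7 close to their normoxic level or above it. Mrps18b, a small-subunit relative of bacterial S18, had 113 and 101 TPM in normoxia, 66.8 and 63.9 on day 2, then 100 and 98.5 on day 7. Both day 2 values were below the other 4, and the rise from day 2 to day 7 was 0.60 ± 0.17 on the log2 scale (limma adjusted p = 0.0758). Against normoxia, its day 2 difference was -0.71 ± 0.17 with a limma adjusted p of 0.215. Mrps7, which lies in the head of the small subunit, had 271 and 273 TPM in normoxia, 189 and 243 on day 2, then 346 and 365 on day 7. The 3 groups did not overlap, and the rise from day 2 was 0.73 ± 0.19 (limma adjusted p = 0.0612). Mrps7 overlaps Gga3 and Mif4gd on the opposite strand.

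Mrpl17, a large-subunit protein near the tunnel exit, had 103 and 117 TPM in normoxia, 69.5 and 83.9 on day 2, then 109 and 149 on day 7. The day 2 values were lowest, and the rise to day 7 was 0.74 ± 0.22 (limma adjusted p = 0.0847). Mrps24, the homologue of bacterial S3, went the other way, with 39.1 and 29.8 TPM in normoxia, 56.9 and 48.5 on day 2, then 30.6 and 32.2 on day 7. Its day 2 values were above the other 4, and it fell by 0.74 ± 0.21 from day 2 to day 7 (limma adjusted p = 0.0794). Urgcp overlaps it on the same strand, with 35.7 and 23.7 TPM in normoxia, 19.8 and 23.4 on day 2, then 39.1 and 28.7 on day 7.

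**Figure D3:**
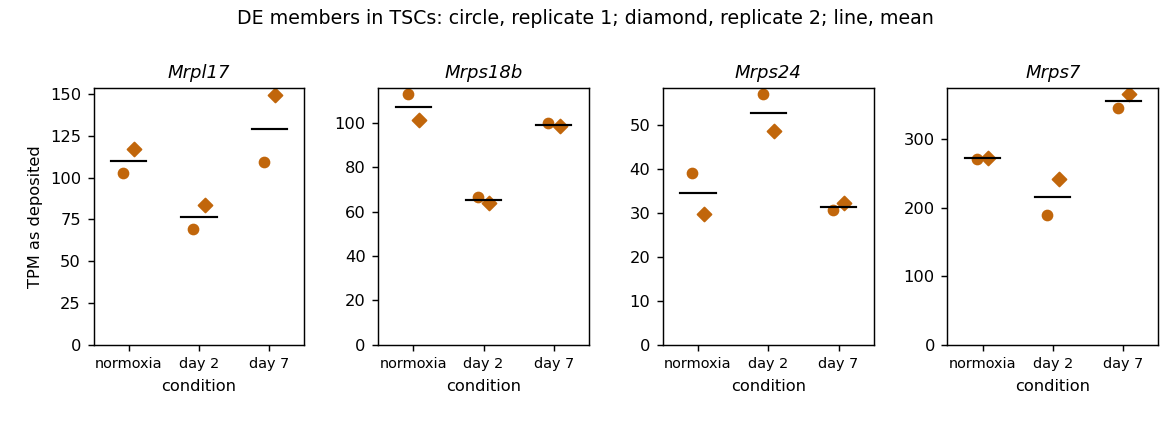
TPM as deposited of the 4 DE members in all 6 TSC libraries, by condition, with circles for replicate 1, diamonds for replicate 2 and lines for means. Mrpl17, Mrps18b and Mrps7 have their lowest pair of values on day 2, and Mrps24 has its highest pair (56.9 and 48.5) there.

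The calls depended on which libraries entered the fit, while the fold changes kept their direction. Without replicate 1 of day 2, replicate 1 of day 7 or replicate 2 of day 7, limma called 0 members, and without replicate 2 of day 2 it called 2, Mrps7 and Mrpl20. Such a fit leaves 1 library in an arm, which is assumed to vary like the other groups. Over the 6 fits that each leave out 1 library, log2 fold changes were 0.57 to 0.63 for Mrps18b, 0.55 to 0.91 for Mrps7, 0.51 to 0.96 for Mrpl17 and -0.85 to -0.62 for Mrps24. With median-ratio scaling there were 10 DE members, all higher on day 7, in place of 3 higher and 1 lower, and Mrps24 was no longer among them. Voom called 4, all higher, of which 3 were the same genes. Fibroblast markers differed between replicates as given above, and without the libraries that held most of them (normoxia replicate 1 and day 2 replicate 2) limma called 7 members, 5 higher and 2 lower, of which 3 were the same genes, with a median of 0.05. Summed TPM of the 6 TSC markers fell from 952 and 1210 (day 2) to 752 and 662 (day 7). Limma called 5 of these markers DE and lower. Elf5, a transcription factor of trophoblast stem cells, fell most, from 82.5 and 85.1 TPM to 18.8 and 14.7. Tfap2c went the other way, rising from 383 and 404 TPM to 488 and 463. The part of fibroblast markers or TSC markers in the members' values was not tested.

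Other members of the TSC comparisons did not pass the test with the main scaling. Mrpl20 had 110 and 89.1 TPM in normoxia, 48.9 and 76.7 on day 2, then 91.1 and 117 on day 7 (day 7 against day 2, 0.75 ± 0.27, limma adjusted p = 0.128). Mrpl52 had 0.76 ± 0.27 in the same comparison (limma adjusted p = 0.128), and Mrpl24 had -0.68 ± 0.25 (limma adjusted p = 0.139). Mrpl23 had 21.5 and 16.7 TPM in normoxia and 38.6 and 28.1 on day 2 (0.78 ± 0.27, limma adjusted p = 0.314). On day 7 against normoxia, Mrpl14 had 0.56 ± 0.23 (limma adjusted p = 0.468), Mrps7 had 0.39, and the small-subunit proteins Mrps15 and Mrps2 had -0.40 each.

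Members with known roles in function or assembly had differences of either sign. The stalk proteins Mrpl10, Mrpl11 and Mrpl12 had log2 fold changes against normoxia between -0.09 and 0.11 in ESCs, between -0.14 and 0.25 in TSCs and between -0.27 and -0.09 in XEN cells. Mrpl12 had 249 and 243 TPM in normoxic ESCs, 241 and 230 on day 2 and 221 and 265 on day 7. Its day 2 values were both below the normoxic ones (-0.06 on the log2 scale), and its day 7 values lay on either side of them. Mrpl58, a peptidyl-tRNA hydrolase that frees stalled ribosomes, had 0.52 on day 7 against day 2 in TSCs, and between -0.04 and 0.07 in the 6 comparisons within ESCs and XEN cells. Mrps27, a pentatricopeptide repeat protein, had 10.9 and 10.7 TPM in normoxic ESCs and 10.3 to 10.9 in hypoxic ones. Mrpl44, related to RNase III, had day 2 values of -0.19 in ESCs, 0.25 in TSCs but -0.25 in XEN cells. Mrps22 had -0.35 on day 2 in TSCs and -0.35 on day 7 in XEN cells. None of these passed the test.

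Mrps18a, Mrps18b and Mrps18c are 3 homologues of the same bacterial protein, of which Mrps18a sits in the large subunit. In normoxic exon-length TPM, Mrps18b was highest in ESCs (119 ± 10.4, against 40.6 ± 0.13 for Mrps18a and 55.2 ± 2.54 for Mrps18c) and in TSCs (98.2 ± 5.94, against 50.7 ± 3.62 and 42.5 ± 0.91). In XEN cells Mrps18b and Mrps18a did not differ beyond their spread (59.7 ± 6.86 and 58.6 ± 7.11), with Mrps18c at 37.7 ± 1.79. On day 2 in TSCs only Mrps18b had a log2 fold change past 1.5-fold (-0.71), against -0.08 for Mrps18a and -0.12 for Mrps18c, and the difference between these genes was not tested. Mrps30, also a large-subunit protein despite its name, had between -0.16 and 0.18 in the 6 comparisons with normoxia. Mrps36 had 16.7 and 15.3 TPM in normoxic ESCs and 16.6 and 23.4 on day 7 (0.30), and it has 3 annotated pseudogenes.

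**Figure D4:**
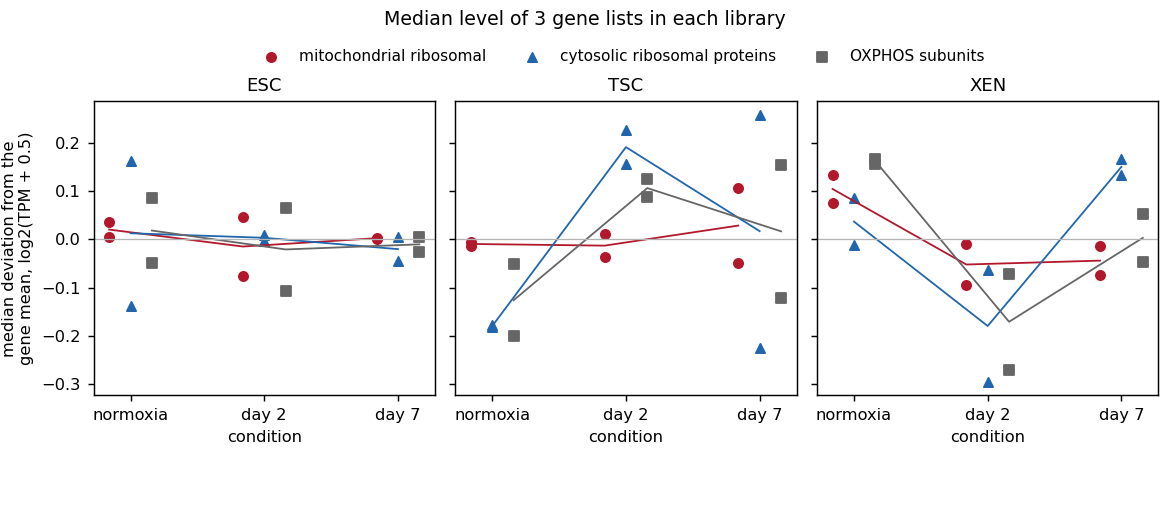
Median over each list of the deviation of log2(TPM + 0.5) from the gene's mean over the 6 libraries of a cell type, for each library, with lines through the means of 2 replicates. Circles are the 77 mitochondrial ribosomal proteins, triangles cytosolic ribosomal proteins and squares OXPHOS subunits. In TSCs on day 2 the last 2 lists lie above their normoxic values (median log2 fold changes of 0.39 and 0.25) and the first list does not (-0.05).

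The medians of cytosolic ribosomal proteins and OXPHOS subunits are set beside those of the members. On day 2 in TSCs the median log2 fold change was 0.39 over 77 cytosolic ribosomal proteins, of which 72 were positive, and 0.25 over 78 OXPHOS subunits, of which 66 were positive, while 35 of the 77 members were positive. Without normoxia replicate 2 the median of OXPHOS subunits was 0.15. On day 7 against normoxia the medians were 0.19 and 0.12, and they rested on replicate 2 of day 7, without which they were -0.04 and -0.01. Without replicate 1 of day 7 they were 0.42 and 0.28. On day 7 against day 2 they were -0.19 and -0.11, against 0.06 for the members, and 0.07 and 0.05 without replicate 1 of day 7, so their sign also depended on 1 library. Limma called 0 genes of both lists DE on day 2 and on day 7 against normoxia in TSCs. At an unadjusted p under 0.05, 15 cytosolic ribosomal proteins and 12 OXPHOS subunits were higher on day 2 (9.61% of all genes), and 1 and 2 on day 7 (2.14%), with 0 lower. Limma called 2 cytosolic ribosomal proteins (Rpl3 and Rpl13a) DE and lower on day 7 against day 2.

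In XEN cells on day 2 the medians of these lists were -0.22 and -0.33. Replicate 1 of day 2 stood lower than replicate 2 in both lists, and without it the medians were -0.10 and -0.21, beside -0.09 for the members. Limma called 0 of either list DE there, and at an unadjusted p under 0.05, 23 OXPHOS subunits and 2 cytosolic ribosomal proteins were lower (3.97% of all genes) and 0 higher. On day 7 the cytosolic ribosomal proteins had a median of 0.11 with 61 of 77 positive, which was 0.06 without normoxia replicate 1 and 0.17 without normoxia replicate 2. The members (-0.16) and the OXPHOS subunits (-0.16) were below 0 on that day, the latter also without each library in turn (-0.24 to -0.11). In ESCs all 3 lists had medians between -0.06 and 0.02 in every comparison. Ndufa4l2, 1 gene of the OXPHOS list, was DE and higher on day 7 (0.758% of all genes were DE). That list was drawn by symbol, and whether each gene on it encodes a subunit was not checked. These are descriptions of lists, and the differences between lists were not tested.

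Other genes of mitochondrial translation were called only in TSCs on day 7 against day 2, where 16.2% of all genes were DE. Of 16 mitochondrial aminoacyl-tRNA synthetases tested, 5 were DE and lower, among them Vars2 (46.5 and 33.5 TPM on day 2, 17.6 and 16.1 on day 7, -1.21 ± 0.23, limma adjusted p = 0.0327) and Aars2 (-0.75), and the list's median was -0.30, beside -0.24 over all genes. Of 14 translation factors, 1 was DE, the elongation factor Guf1 (-1.22 ± 0.24, limma adjusted p = 0.0336), and the list's median was -0.19. Of 22 genes for assembly and rRNA modification, Mterf4 (-0.74) and Gtpbp10 (-0.65) were lower and Mpv17l2 (0.60) higher. Of 15 regulators of mitochondrial transcription and biogenesis, Polg2, a subunit of the mitochondrial DNA polymerase, was lower (-1.29). The 5 ribosomal proteins without an Mrp symbol, Dap3 among them, had 0 DE genes in all 9 comparisons, and in the other 8 comparisons 0 genes of these 5 lists were DE. Among all genes, 0% to 0.758% were DE in those 8. At an unadjusted p under 0.05 each list held 0 to 3 genes in each of those 8. The share of all genes at that p was 0.962% to 9.61% in a given direction. Voom calls were counted for the members only.

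The 12 hypoxia reference genes had positive medians in hypoxia in every cell type. Their median log2 fold change against normoxia in ESCs was 0.98 on day 2 and 1.03 on day 7. Replicates differed there. The median deviation from the gene's mean was -0.68 and -0.61 in normoxia, -0.03 and 0.56 on day 2, then 0.71 and 0.06 on day 7. For TSCs these medians were 1.58 and 0.48, and for XEN cells 0.71 and 0.58. Against normoxia, limma called no reference gene on day 2 in ESCs or XEN cells, nor on day 7 in TSCs. It called fewer on day 7 in ESCs (0.758% of all genes were DE) and XEN cells (0.11%) than on day 2 in TSCs (0.2%). In the last, 5 of the 12 were DE, among them Pdk1. It had 15.5 and 14.5 TPM in normoxia and 89.6 and 82 on day 2 (2.47 ± 0.19, limma adjusted p = 0.0191). The largest change of a member against normoxia in TSCs on day 2 was 0.78. On day 7, Pdk1 was back at 15.6 and 15.2 TPM in TSCs (-2.44 ± 0.19 against day 2, limma adjusted p = 0.00599). Every reference gene that limma called in TSCs on day 7 against day 2 was lower on day 7.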

How the data were processed

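RNA of 18 libraries was sequenced by the authors on a HiSeq instrument after KAPA RNA HyperPrep library preparation. According to the methods and the submitters' processing notes, reads were trimmed with cutadapt 2.4, aligned to mm10 with STAR 2.7.5a and counted with featureCounts, and StringTie 2.0.6 and edgeR 3.26.8 are also named. The authors kept protein-coding genes that passed 0.4 CPM in 2 or more of the 6 libraries of a cell type. The authors deposited TPM, 1 table per cell type, and normalized each table on its own, so tests were made within a table only. Columns headed day 0 were taken as normoxia. The tables' TPM are scaled by the distance from gene start to gene end. Dividing by the value of 1 read gave whole reads (within 0.05) in all libraries for all 77 members and for 13395 of 13578, 13330 of 13518 and 11367 of 11538 genes in ESCs, TSCs and XEN cells. Exon-length TPM were recomputed from these reads with a GRCm38 annotation.

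Differential expression was tested on log2(TPM + 0.5) with limma 3.58.1 (R 4.3.3, mean-variance trend, genes over 0.4 TPM in at least 2 libraries), with the 6 libraries of a cell type in 1 fit and Benjamini-Hochberg adjustment over all genes. Fold changes of low genes are understated on this scale. An exact two-sided permutation test of 2 against 2 libraries cannot go below p = 0.333, so none was used. The labels call the libraries biological replicates. Equal replicate numbers were not used as pairs, since correlations of their deviations ran from -0.46 to 0.27. The scripts were tested on simulated data.

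Members and gene lists were chosen with earlier results of these data known. Genes named were the DE members, per comparison the 2 members of largest change in each direction without overlap between groups, the 3 highest and 3 lowest by mean exon-length TPM over 6 libraries, members with a known role, and at most 3 called genes per companion list. Of the companion genes that this rule names, 1 is not reported here. Mrpl34 and Mrpl43 values in other cell types, Twnk and Urgcp were added after their values were seen. Alternatives were pseudocounts of 0.1 and 1, other filters, median-ratio scaling, voom on recovered reads, no trend, a stricter threshold, the replicate block, only the libraries compared, and each library left out. Omitting the libraries rich in fibroblast markers and crossing replicate numbers, and leaving out each library for the cytosolic ribosomal and OXPHOS lists, were chosen after seeing the data.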

Additional observations from a re-analysis of the deposited data

Results flagged for a closer look

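For 6 members named above, the libraries of 2 cell types were fully apart in opposite directions in the same comparison. All 6 had been named by a rule that favours large changes without overlap, so the flag reuses values that chose them. Within a cell type, 8.8% to 44.9% of all genes were apart in a given direction, depending on the comparison. The share of all genes apart in opposite directions in 2 cell types was not counted. The differences between cell types were not tested, because each table was normalized on its own, and they are differences of log2 fold changes. With 2 libraries per group, outlying libraries within a group were not looked for.

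On day 2 against normoxia, Mrpl23 differed by 1.29 between TSCs (0.78) and XEN cells (-0.51), and by 0.61 between ESCs (0.10) and XEN cells. Mrps24, which shares its strand and part of its position with Urgcp, differed by 1.07 between TSCs (0.62) and XEN cells (-0.46). Mrpl2 differed by 0.76 between TSCs (0.19) and XEN cells (-0.56). On day 7 against normoxia, Mrpl45 differed by 0.71 between TSCs (0.23) and XEN cells (-0.48). Mrps7 differed by -0.47 between ESCs (-0.08) and TSCs (0.39), and by 0.60 between TSCs and XEN cells (-0.22). On day 7 against day 2, Mrpl24 differed by -0.54 between ESCs (-0.22) and XEN cells (0.31), and by -0.99 between TSCs (-0.68) and XEN cells. None of the 6 members was DE in these comparisons.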

How the results depend on the processing

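Counts of DE members and medians were the same within their limits in 273 alternatives and moved in 24, and no median that moved with a scaling changed sign. With median-ratio scaling the TSC medians were -0.13 on day 2, 0.25 on day 7 and 0.33 on day 7 against day 2, and 10 members were DE in the last. With voom on recovered reads the medians were 0.20 on day 7 and 0.20 on day 7 against day 2 in TSCs, and -0.24 on day 2 and 0.0767 on day 7 against day 2 in XEN cells. In place of 4 DE members in TSCs on day 7 against day 2 there were 2 without the mean-variance trend, 7 without the libraries rich in fibroblast markers and 0 at an adjusted p of 0.05 and a fold change over 2. Leaving out each library in turn gave 0 to 3 DE members there, with medians of 0.000472 to 0.14. The medians without 1 library were -0.0831 to 0.0401 in ESCs on day 2, -0.0213 to 0.0817 in ESCs on day 7 against day 2, and -0.0221 to 0.14 in TSCs on day 7. In XEN cells they were -0.20 to -0.0861 on day 2, -0.21 to -0.12 on day 7 and -0.0425 to 0.0688 on day 7 against day 2. The cause of these shifts was not tested. With the replicate block, the same 4 members were DE in TSCs on day 7 against day 2, and 0 members were DE elsewhere. The 9 medians were those given above, because a replicate block cannot change a fold change in this balanced design. Nor can dropping the trend, fitting only the libraries compared or leaving out a library of the third group. The medians and named values of these settings are among the alternatives counted here, so their sameness was fixed in advance. Crossed replicate numbers gave 0 DE members in the 3 comparisons where they were tried. Among 174 values of named members, 134 of 2842 alternative values had the other sign, all of values not called, the largest of size 0.23 in the report, and 23 lost and 7 gained a call. With 2 libraries per group, the interval of most members in TSCs reached past a fold change of 1.5.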
